A study of Mus musculus with 16 samples.

Results

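The genes of the cytosolic ribosomal proteins were followed through the sorting of olfactory mucosa cells of S100a5-tauGFP mice. Members were taken by symbol, as Rpl or Rps with a number and an optional letter or an x or l suffix, together with Rplp0, Rplp1, Rplp2 and Rpsa. Pseudogene symbols (-ps) and the Rps6k kinases, 6 probe sets here, were left out. This gave 63 genes with 1 probe set each, of 22206 probe sets tested. They comprised 40 genes of the large subunit (Rpl and Rplp) and 23 of the small subunit (Rps and Rpsa). Rplp2, Rpl10 and Rps27 were not found by symbol and were not analysed here.

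The samples came from 24 mice of both sexes, 7 to 12 weeks old, all carrying the S100a5-tauGFP reporter, in which the fluorescent protein marks olfactory sensory neurons that were recently active. Each mouse stayed in a clean air chamber for 40 h, and from 26 h on received 10 s pulses of either filtered air (vehicle) or the thiol odorant 1-pentanethiol every 20 min. The mice formed 8 pools of 3, with 4 pools per stimulus, and each pool was sorted into GFP+ and GFP- cells, giving 16 Clariom S arrays in 4 groups of 4. The design text of the series names bourgeonal as the odor, whereas the title and the sample labels name 1-pentanethiol, and the sample labels were followed. Mouse strain and the genotype at other loci were not given in the labels, and no mouse can be followed singly within a pool.

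Signals were log2 values per probe set. The array median over all tested probe sets was 7.71 to 7.78 in GFP- and 7.38 to 7.45 in GFP+ samples. S100a5, which the reporter follows, rose from GFP- to GFP+ cells by 0.87 ± 0.12 with vehicle and 0.99 ± 0.12 with odor (model SE, limma adjusted p = 3.51e-05 and 7.79e-06). Omp, the marker of mature olfactory neurons, was near 18.3 in every group and did not pass the test in either sort, whereas its differences of 0.40 and 0.36 after shifting arrays to equal medians did (adjusted p = 0.0026 and 0.00505). The GFP+ array of vehicle replicate 2 stood apart in its negative control entries, whose median was 7.28, against 6.25 over all arrays.

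A ribosome is built from ribosomal RNA and a set of proteins, most of which are present once per particle, so their genes are usually expressed together and strongly. Their mRNAs begin with a pyrimidine-rich tract, the TOP motif, through which their translation is coupled to the kinase mTOR. Growing and dividing cells make many ribosomes, and the olfactory epithelium contains both cycling basal progenitors and neurons that no longer divide. Several ribosomal proteins have a paralog, often with a narrower tissue range, that can take the place of the standard protein in the particle.

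In both sorts, GFP+ cells had lower signals of most ribosomal protein genes than GFP- cells of the same mice. With filtered air, 46 of 63 members fell, 1 rose and 16 did not pass the threshold of a Benjamini-Hochberg adjusted p of 0.05 in limma. Over all probe sets of this comparison 11.8% were lower and 9.34% higher. The median member difference was -0.63 (1.55-fold lower), with quartiles of -0.79 and -0.36, whereas the median over all probe sets was 0.11. With the odor, 45 members fell, 2 rose and 16 did not pass, against 11.9% lower and 11.3% higher over all probe sets. Of the 2 that rose, Rpl3l had a mean signal below the median of the negative control entries. The median member difference with the odor was -0.57 (1.48-fold lower), beside 0.13 over all probe sets. The 4 GFP+ and 4 GFP- arrays did not overlap, with GFP+ lower, for 47 members with vehicle and 41 with odor (12% and 12.3% of all probe sets), and with GFP+ higher for 1 and 2 (11.7% and 14.4%). In a sorted population, fewer cells of a type and less RNA per cell cannot be told apart. Markers of neutrophils (12 of 12) and of cycling and globose basal cells (16 of 17) fell in the same sorts, and their part in these differences was not tested.

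The same 42 members fell in both sorts (10.3% of all probe sets did so), and Rps27l was the 1 member that rose in both (4.22% of all). The median signal over the 63 members was 13.56 to 13.80 on the GFP- arrays and 12.72 to 13.11 on the GFP+ arrays of the vehicle pools. In the odor pools it was 13.46 to 13.89 in GFP- and 12.84 to 13.17 in GFP+ cells, so the fractions did not overlap in either set of pools. Between GFP+ and GFP- cells of the same pool, the median member difference ran from -0.29 in odor replicate 3 to -0.82 in odor replicate 2. In each pool 50 to 58 of the 63 members were lower in GFP+ cells, and 46 were lower in all 8 pools, as were 12.5% of all probe sets. By the mean difference of a sort, 35.6% of all probe sets were lower with vehicle and 33.5% with odor. Vehicle and odor pools were different mice, so neither sort shared arrays with the other.

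**Figure D1:**
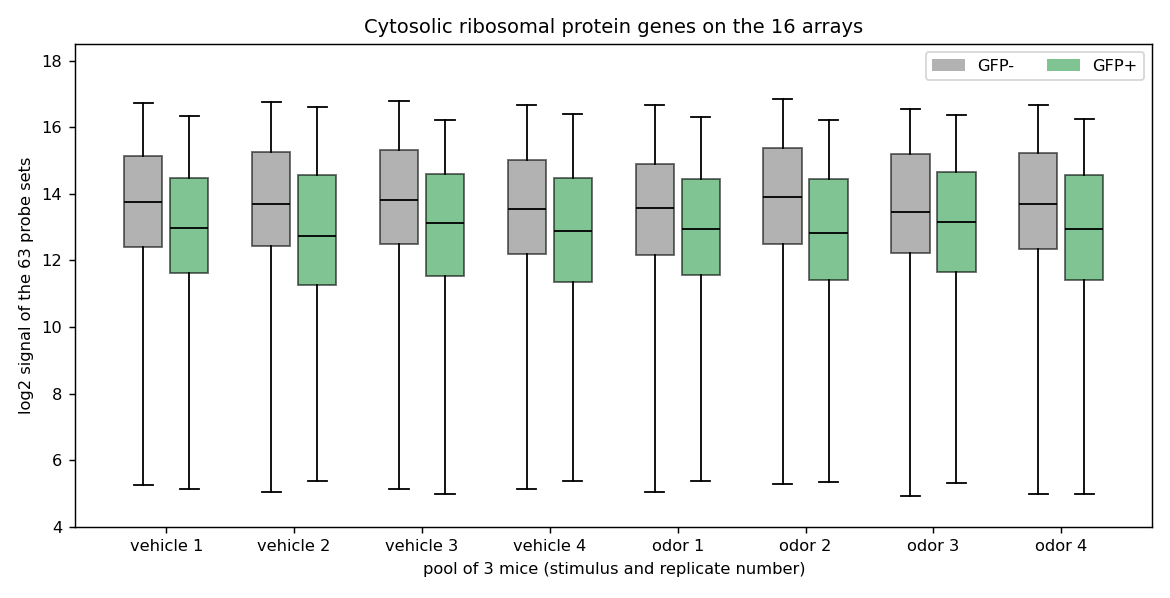
Log2 signal of the 63 ribosomal protein genes on each of the 16 arrays, in pools by stimulus and replicate number, with GFP- in grey and GFP+ in green (boxes span the quartiles of the genes, lines are medians, whiskers reach the lowest and highest gene). Array medians of the genes were 12.72 to 13.17 in GFP+ and 13.46 to 13.89 in GFP- samples.

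Rplp0 had the lowest difference of all members. It encodes the P0 protein at the base of the ribosomal stalk, which the translation factors contact. In the vehicle pools it measured 12.43, 12.58, 12.38 and 12.27 in GFP- cells of replicates 1 to 4, and 11.05, 10.36, 11.11 and 10.63 in GFP+ cells. In the odor pools the GFP- values were 11.98, 12.48, 12.24 and 12.64 and the GFP+ values 10.71, 10.76, 10.91 and 11.02. All 8 GFP+ values lay below all 8 GFP- values. The difference was -1.63 ± 0.17 in the vehicle sort (3.09-fold lower, adjusted p = 1.5e-06, and 2.98e-07 to 7.23e-05 over the alternatives) and -1.48 ± 0.17 in the odor sort (2.80-fold lower, adjusted p = 4.38e-06, and 1.01e-06 to 0.000184). Rplp1, whose product binds to P0 in the stalk, fell by 0.83 ± 0.15 and 0.60 ± 0.15 on the log2 scale. The odor call of Rplp1 was lost without odor replicate 2 (adjusted p = 0.07) and with array medians set equal (-0.28, adjusted p = 0.0887).

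The small subunit supplied most of the other large decreases. Rps26, whose product lies where the mRNA leaves the small subunit, measured 13.73, 13.64, 13.55 and 13.28 in vehicle GFP- cells and 12.63, 11.69, 12.49 and 12.30 in vehicle GFP+ cells. With the odor it was 13.67, 13.76, 13.30 and 13.49 in GFP- and 12.42, 12.02, 12.55 and 12.25 in GFP+ cells, again without overlap. Its differences were -1.27 ± 0.19 and -1.25 ± 0.19 (adjusted p = 6.27e-05 and 7.79e-05). Rps9, a small subunit protein near the mRNA entry, differed by -1.28 ± 0.20 and -1.07 ± 0.20, and Rps16, a protein of the head of the small subunit, by -1.22 ± 0.14 and -1.13 ± 0.14. Rps20, also of the head, was -1.08 ± 0.12 in the vehicle sort and -1.22 ± 0.12 in the odor sort. With odor its values were 12.18, 12.53, 12.53 and 12.50 in GFP- and 11.08, 11.17, 11.20 and 11.42 in GFP+ cells, which did not overlap. Of the 63 members Rps20 had the smallest adjusted p of the odor sort, 8.72e-07. Rps28 fell by 0.97 and 0.93, and Rpsa, also known as the laminin receptor precursor, by 0.94 and 0.67.

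Across the 23 small subunit genes 18 fell in the vehicle and 19 in the odor sort, with 1 higher each time and medians of -0.70 and -0.63. Of the 40 large subunit genes 28 and 26 fell, with 0 and 1 higher and medians of -0.55 and -0.48. The difference between the subunits was not tested. In the large subunit the lowest after Rplp0 was Rpl36a, at -1.16 ± 0.20 and -1.06 ± 0.20, followed in the vehicle sort by Rpl39, Rpl32 and Rpl31, at -0.94, -0.91 and -0.86. Rpl5 and Rpl11, which bind the small ribosomal RNA of the large subunit and, when free, the p53 regulator Mdm2, fell by 0.60 and 0.71 with vehicle and by 0.59 and 0.53 with odor. Rps6, the substrate of S6 kinase, fell by 0.57 and 0.58. With array medians set equal the vehicle difference of Rps6 was -0.22 (adjusted p = 0.0761), those of Rpl5 were -0.25 and -0.26 (0.12 and 0.1), and the odor difference of Rpl11 was -0.20 (0.166). Rpl3, at the peptidyl transferase centre, fell by 0.37 and 0.35. With the pool as a block the adjusted p of Rpl3 was 0.0559 and 0.0621, and leaving out single pools raised it to at most 0.144 with vehicle and 0.254 with odor. With array medians set equal Rpl3 was at -0.02 and -0.03. Without odor replicate 2 the odor calls of Rpl5 and Rpl11 were lost as well (adjusted p = 0.0537 and 0.0794).

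**Figure D2:**
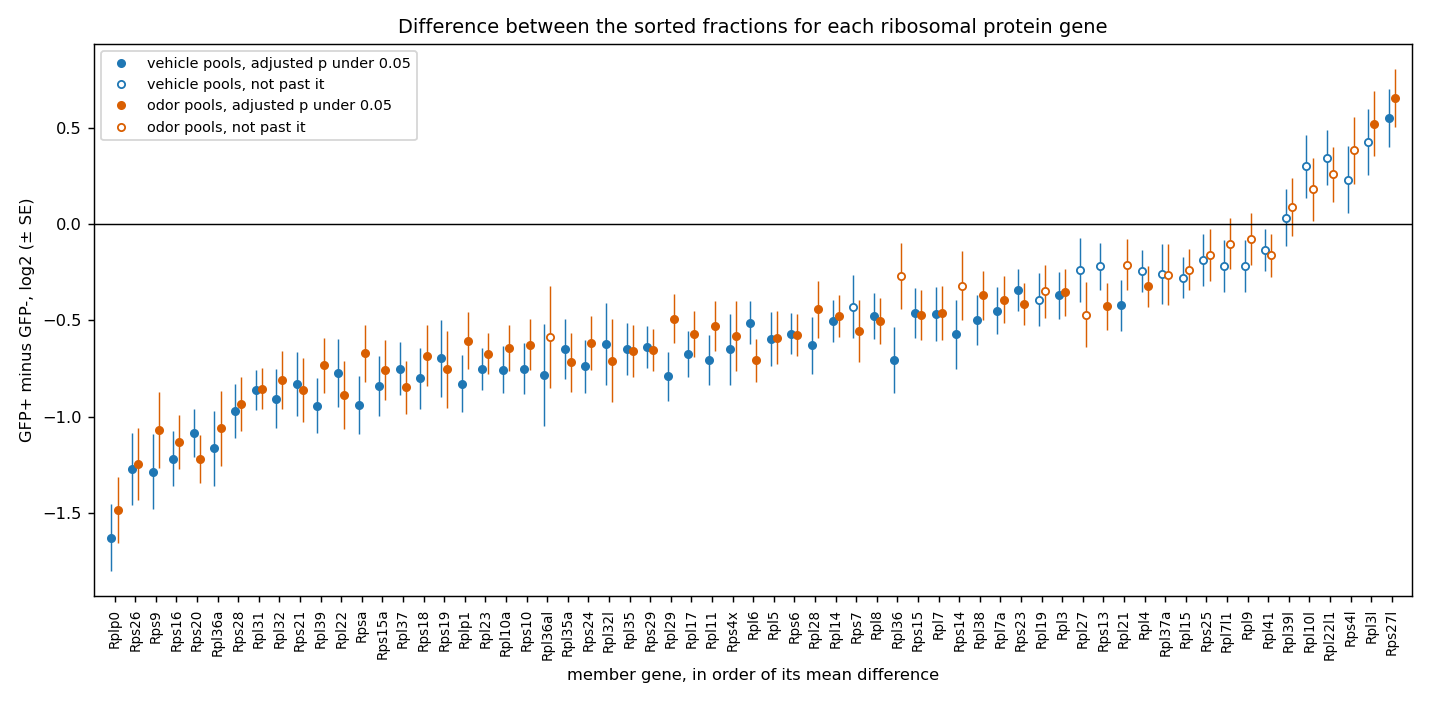
GFP+ minus GFP- difference on the log2 scale for each of the 63 genes, in the vehicle and the odor pools (points with model SE, n = 4 arrays per group, filled where the adjusted p passed). Values ran from -1.63 for Rplp0 to 0.55 for Rps27l with vehicle and from -1.48 to 0.65 for the same genes with odor.

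Promoter windows are shown for the 5 lowest members of the vehicle sort and, for contrast, for Rps27l and for the pair Rpl22l1 and Rpl22, whose differences had opposite signs. Rps27l and Rpl22 each have 2 windows in the table, of which the first is printed. They are from RefSeq, build GRCm38.p6, as 75 bases before the annotated start and 25 from it on, read on the strand of the gene. The annotated start need not be the one used in these cells. Capitals mark the matches to the motifs searched: the ETS family core CCGGAAG, the YY1 core AAGATGGC, the TATA box TATAAA and the TOP-like tract CTCTTTC. In Rpl22l1 a pair of overlapping TATA box matches, one on each strand, forms a single run of capitals. The pair begins 32 and 28 bases before the annotated start. In Rplp0 and Rpl36a the TATA box match begins 17 and 3 bases after it. The motif names refer to the letters only.
Rplp0, chr5:115559392-115559491 (+ strand): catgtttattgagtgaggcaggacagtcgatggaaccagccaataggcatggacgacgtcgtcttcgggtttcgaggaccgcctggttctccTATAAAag
Rps9, chr7:3703966-3704065 (+ strand): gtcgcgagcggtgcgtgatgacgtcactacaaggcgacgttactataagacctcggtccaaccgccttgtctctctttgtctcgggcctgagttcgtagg
Rps26, chr10:128626482-128626581 (- strand): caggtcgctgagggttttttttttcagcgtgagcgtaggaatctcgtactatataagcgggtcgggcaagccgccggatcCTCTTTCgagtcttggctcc
Rps16, chr7:28350614-28350713 (+ strand): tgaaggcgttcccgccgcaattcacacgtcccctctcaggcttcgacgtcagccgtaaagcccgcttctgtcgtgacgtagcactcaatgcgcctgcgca
Rpl36a, chrX:134585579-134585678 (+ strand): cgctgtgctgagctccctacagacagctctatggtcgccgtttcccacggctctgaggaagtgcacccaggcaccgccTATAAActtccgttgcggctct
Rps27l, chr9:66946011-66946110 (+ strand): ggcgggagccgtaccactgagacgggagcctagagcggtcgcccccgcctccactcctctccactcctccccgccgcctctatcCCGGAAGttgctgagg
Rpl22l1, chr3:28805433-28805532 (+ strand): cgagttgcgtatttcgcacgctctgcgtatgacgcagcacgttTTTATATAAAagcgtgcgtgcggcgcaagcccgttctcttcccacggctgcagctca
Rpl22, chr4:152324361-152324460 (+ strand): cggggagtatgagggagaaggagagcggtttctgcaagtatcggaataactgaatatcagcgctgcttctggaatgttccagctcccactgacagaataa

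Of the 63 members 50 had a RefSeq window, and the 4 motifs were searched on both strands over the whole 300 bases, from 250 before to 50 after the start. The ETS core was in 20 of 50 members (40%), against 9.93% of the 27025 genes with a window. The TOP-like tract was in 14 of 50 (28%), against 9.28%. It was in 13 of 33 members that fell in both sorts and in 1 of 17 other members, a description to which no test was applied. The other members include paralogs such as Rps27l and Rpl22l1. A match can lie anywhere in the 300 bases on either strand, so it need not be at the 5' end of the mRNA. The YY1 core was in 4 members (8%, against 3.19%), and the TATA box in 7 (14%, against 15.7%). A match describes letters in this window and is not evidence of a bound factor. The windows printed for Rps9 and Rps16 had no match. In Rpl36a the TOP-like tract lay outside the printed stretch, as did the ETS match of Rps26 and both matches of Rpl22, a TATA box and a YY1 core.

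The members with the opposite sign were paralogs. All 55 members outside the 8 paralogs defined by the naming rule (Rpl3l, Rpl7l1, Rpl10l, Rpl22l1, Rpl36al, Rpl39l, Rps4l and Rps27l) were lower in GFP+ cells in both sorts, and 45 of the 55 fell in each. With array medians set equal, the sign turned for 9 of the 55 in each sort: Rpl15, Rpl37a, Rpl4, Rpl41, Rpl9 and Rps25 in both, Rpl27, Rps13 and Rps23 with vehicle, and Rpl21, Rpl36 and Rps14 with odor. Rpl32l, whose symbol has the same suffix but which the naming rule did not list as a paralog, is among the 55. It fell by 0.62 ± 0.21 and 0.71 ± 0.21 (adjusted p = 0.0482 and 0.0243), beside -0.91 and -0.81 for Rpl32, and the gap of this pair was not tested. The vehicle call of Rpl32l was lost when any single vehicle pool was left out (adjusted p up to 0.173). Its odor call was lost without odor replicate 2 or 4 (0.1395 and 0.107). Both calls were lost with array medians set equal (0.248 and 0.1145) and with quantile normalization (0.101 and 0.0801). Of the 8 paralogs, 6 had positive differences in both sorts, and only Rps27l of these passed in both. Over all probe sets 55.8% were positive and 24.8% negative in both sorts, so a positive sign alone does not single out the paralogs. The difference of Rpl39l (0.03 and 0.09) turned negative with receptor medians set equal (vehicle) or quantile normalization (odor). Rps27l, a paralog of Rps27 and a known p53 target, rose by 0.55 ± 0.15 with vehicle (1.47-fold, adjusted p = 0.0136) and by 0.65 ± 0.15 with odor (adjusted p = 0.00413). Its vehicle values were 9.71, 9.76, 9.58 and 9.17 in GFP- and 9.93, 10.46, 10.00 and 10.03 in GFP+ cells. With odor they were 9.32, 9.58, 9.27 and 9.44 in GFP- and 10.25, 10.04, 9.94 and 9.99 in GFP+ cells. The fractions did not overlap in either sort, and GFP+ was above GFP- in 8 of 8 pools. With odorant receptor medians set equal the differences were 0.32 and 0.59 and the call was lost in both sorts (adjusted p = 0.44 and 0.0938). In the vehicle sort it was also lost without vehicle replicate 4 (adjusted p = 0.0718).

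Rpl22l1 and Rpl22 showed the widest gap within a pair. Rpl22l1 is a paralog whose expression is known to be restrained by Rpl22. In the vehicle pools Rpl22l1 measured 9.70, 9.60, 10.18 and 9.85 in GFP- and 10.29, 10.15, 10.35 and 9.92 in GFP+ cells, and in the odor pools 9.72, 9.90, 9.76 and 9.74 in GFP- and 9.88, 10.03, 10.31 and 9.94 in GFP+ cells. The fractions overlapped in both sets of pools, although each GFP+ value was above the GFP- value of its own pool. Its differences of 0.35 ± 0.14 and 0.26 ± 0.14 did not pass (adjusted p = 0.0973 and 0.203), with GFP+ above GFP- in 8 of 8 pools, as for 12.3% of all probe sets. Rpl22 measured 13.82, 14.33, 14.14 and 14.02 in vehicle GFP- and 13.21, 13.54, 13.28 and 13.21 in vehicle GFP+ cells, and fell by 0.77 ± 0.18 and 0.89 ± 0.18. The change of Rpl22l1 exceeded that of Rpl22 by 1.12 with vehicle and 1.15 with odor on the log2 scale (two-sided exact permutation test, n = 4 arrays per fraction, p = 0.0286 each, 0.0381 after Benjamini-Hochberg adjustment over 12 tests). With 4 arrays against 4, 0.0286 is the smallest p this test can give. It treated the arrays as independent, although each GFP+ array shares its mice with a GFP- array. No paired test of the gaps was run.

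The same test was run on the other pairs of the naming rule of which both genes were measured. The change of Rps4l exceeded that of Rps4x by 0.88 and 0.97, with exact permutation p = 0.0286 and 0.0381 adjusted in each sort. Rps4l itself did not pass in either sort (0.23 and 0.38, limma adjusted p = 0.378 and 0.123), whereas Rps4x fell by 0.65 and 0.58. With array medians set equal the calls of Rps4x were lost (0.129 and 0.196) and Rps4l passed as higher (0.00808 and 0.00243). Rpl3l, the paralog of heart and skeletal muscle, and Rpl39l had mean signals of 5.35 and 5.26, below the median of the negative control entries, 6.25. Array medians of these entries were 5.99 to 6.12 in GFP- and 6.22 to 7.28 in GFP+ samples. The tests of Rpl3l against Rpl3 and of Rpl39l against Rpl39, which are among the 12, are therefore not read. For the retrogene copy Rpl36al against Rpl36a the gap was 0.38 (p = 0.0286) with vehicle and 0.47 with odor, the latter with exact permutation p = 0.0571 and 0.0686 adjusted. Rpl7l1 and Rpl7 were apart by 0.25 and 0.36, which did not pass (exact permutation p = 0.286 and 0.143). Rpl3l passed as higher in the odor sort (0.52 ± 0.17, adjusted p = 0.0345, 0.0521 with the pool as a block and 0.219 without odor replicate 3). The call was also lost without odor replicate 1, 2 or 4. It was lost as well with quantile normalization (0.0749) and with odorant receptor medians set equal (0.197). At this signal level the call is not read either. In the vehicle sort Rpl3l measured 0.43 ± 0.17 (adjusted p = 0.087). Rpl36al fell in the vehicle sort (-0.78 ± 0.26, adjusted p = 0.0435) and not beyond the threshold in the odor sort (-0.59, adjusted p = 0.121). With the pool as a block its vehicle adjusted p was 0.0526, and without vehicle replicate 2 or 3 it was 0.187 or 0.136. Signals of closely similar copies may share probes, and the probe sequences were not used here.

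**Figure D3:**
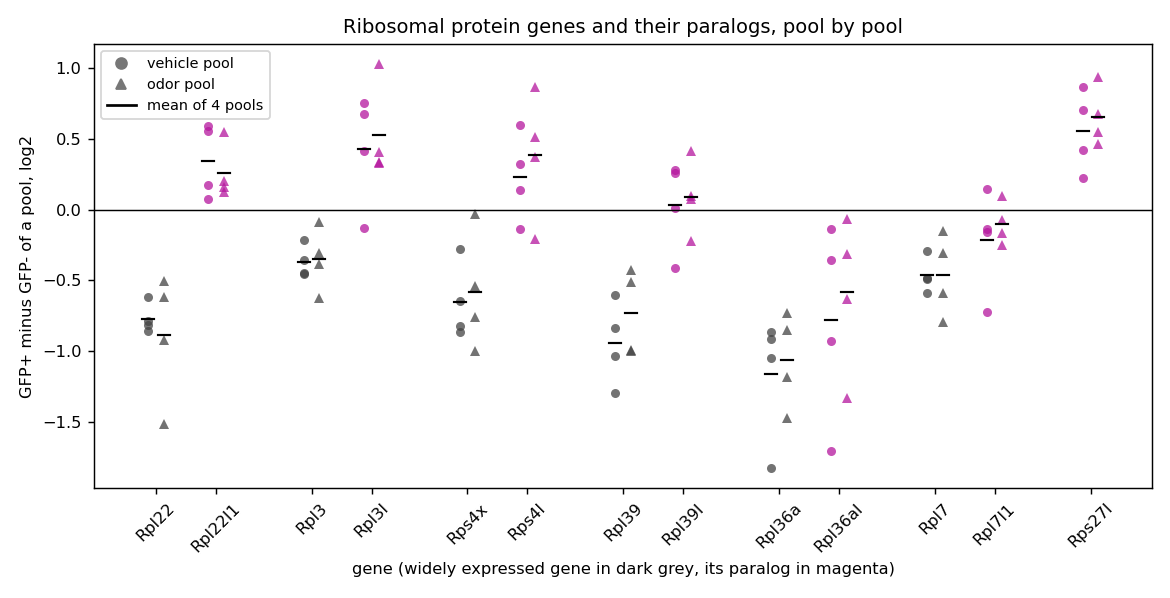
GFP+ minus GFP- log2 difference in each of the 8 pools for paralogs (magenta) and their widely expressed partners (grey), with circles for vehicle and triangles for odor pools and bars for the mean of 4 pools. Rpl22l1 lay above 0 and Rpl22 below 0 in all 8 pools.

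Besides the paralogs, Rpl15, Rpl19, Rpl27, Rpl37a, Rpl41, Rpl9 and Rps25 passed in neither sort, with differences between -0.47 and -0.08. Rpl41, which encodes the shortest protein of the set, differed by -0.13 ± 0.11 and -0.16 ± 0.11. Rpl4, Rps13 and Rps7 passed in the odor sort and not in the vehicle sort, at -0.32, -0.43 and -0.55, and Rpl21, Rpl36, Rpl36al and Rps14 passed in the vehicle sort and not in the odor sort. None of the 63 passed in the test of the difference between the sorts. With the pool as a block the odor call of Rpl4 was lost (adjusted p = 0.0646). Mean signals of members ran from 5.26 to 16.52 with a median of 13.32, which 7.32% of all probe sets exceeded. Signals of different probe sets depend on their probes and do not rank transcripts by abundance. Among the 55 members that are not paralogs, Spearman's rho between mean signal and difference was 0.42 with vehicle and 0.45 with odor, so brighter members differed less from 0. These points share the same arrays, and over all 63 members rho was 0.05 in each sort.

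The cumulative distribution places the 63 genes within the whole array. The members' median difference lay at the 10.8th percentile of all differences with vehicle and at the 11.5th with odor. Lower values in both sorts were found for 57 members and for 24.8% of all probe sets. The counts of calls depended on how arrays were set to each other. When every array was shifted to a common median, the median difference of all probe sets became 0.46 in both sorts, and 25 and 24 members fell and 6 and 6 rose. The higher ones were then Rpl10l, Rpl22l1, Rpl39l, Rpl3l, Rps27l and Rps4l. Of all probe sets a far larger share than of the members passed as higher in this setting, as given in the closing section. Being higher there was therefore not particular to these paralogs. The distance of the members' median from that of all probe sets, -0.74 and -0.70, is not altered by such a shift. In the odor sort 27 members fell when odor replicate 2 was left out. Under all settings tried, 19 members fell in both sorts, Rplp0, Rps26, Rps9, Rps16, Rps20 and Rpl36a among them. How many of all probe sets did so was not counted, so this count has no share of the whole array beside it.

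**Figure D4:**
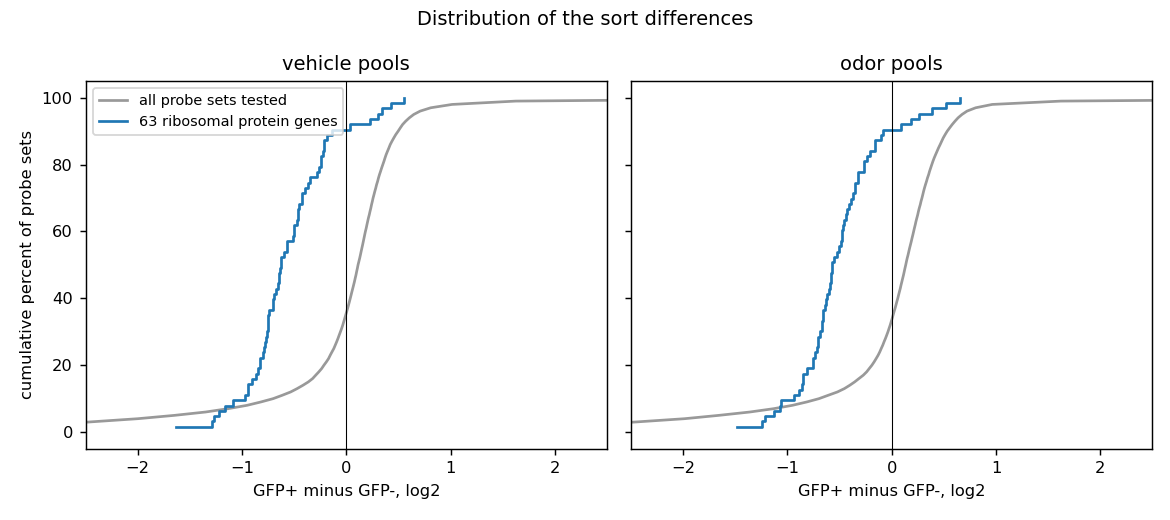
Cumulative share of genes by GFP+ minus GFP- log2 difference, for the 63 ribosomal protein genes and for all 22206 probe sets, in each sort. The members' curve lies to the left, with medians of -0.63 and -0.57, against 0.11 and 0.13 for all probe sets.

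Ribosomal proteins outside the symbol rule were read for comparison. Rps3a1, of the small subunit, fell by 0.54 and 0.48, and Fau, whose product is cleaved to the small subunit protein Rps30, by 0.52 and 0.71. The calls of Rps3a1 were lost without vehicle replicate 3 (adjusted p = 0.0588) and without odor replicate 2 or 4 (0.137 and 0.0582). With array medians set equal Rps3a1 was lost in both sorts (-0.19 and -0.15) and Fau with vehicle (-0.17, adjusted p = 0.142). Other lists concern the same machinery. Of 20 further TOP mRNAs 8 fell in each sort and 0 rose, with medians of -0.32 and -0.25. This is 40% lower, against 11.8% and 11.9% of all probe sets. Those that fell included Pabpc1, the poly(A) binding protein, at -0.94 and -0.97, and Eef1b2, an exchange factor of translation elongation, at -0.83 and -0.88. They also included Vim and Lgals1, at -4.90 and -3.86 with vehicle, which are strongly expressed in leukocytes and progenitors as well. The part of such cells in these differences was not tested. Of 30 initiation and elongation factors 1 fell with vehicle (Eif3k, -0.49) and 0 with odor, with medians of 0.0066 and 0.0043. These shares of 3.33% and 0% were below those of all probe sets. The call of Eif3k was lost without vehicle replicate 2, 3 or 4 (adjusted p = 0.125, 0.0844 and 0.0532) and with array medians set equal (-0.14, adjusted p = 0.411).

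Factors that assemble ribosomes were read next. Of 52 genes of ribosome biogenesis and RNA polymerase I, 0 fell and 1 rose in each sort (Pno1 by 0.35 with vehicle, Gar1 by 0.41 with odor), with medians of 0.06 in both. Over all probe sets 11.8% and 11.9% fell, and 9.34% and 11.3% rose, against 1.92% of this list. Of 77 mitochondrial ribosomal proteins, which are built into a separate ribosome, 0 fell, and 7 rose with vehicle and 3 with odor (9.09% and 3.9%, against 9.34% and 11.3% of all probe sets), with medians of 0.16 in both, beside 0.11 and 0.13 over all probe sets. Mrpl40 rose in both, by 0.47 and 0.51, with the odor call lost without odor replicate 3 (adjusted p = 0.0722). The Gar1 call was lost without odor replicate 1, 2 or 3 and the Pno1 call without vehicle replicate 2, 3 or 4, with adjusted p up to 0.0839 and 0.145. Of 22 genes of mTOR signalling and TOP regulation 2 fell in each sort (9.09%, near the 11.8% and 11.9% of all probe sets): Myc, a transcription factor that drives ribosome production (-4.39 and -4.49), and Eif4ebp1, the mTOR-regulated repressor of cap-dependent initiation (-0.59 and -0.96). With the pool as a block the vehicle calls of Pno1 and Eif4ebp1 were lost (adjusted p = 0.0553 and 0.0504). In the vehicle sort 2 of the 22 rose (9.09%, against 9.34% of all probe sets), and 0 rose with odor. These were Mtor itself, by 0.58, and the S6 kinase family member Rps6ka6, by 0.53. The call of Mtor was lost without vehicle replicate 1, 2 or 3, with adjusted p up to 0.143, and that of Rps6ka6 without vehicle replicate 2 (0.0638). Mtor was also lost without odor replicate 1, 2, 3 or 4 (adjusted p up to 0.0699) and with only the compared groups fitted (0.127). Quantile normalization ended its call as well (0.0568). With odorant receptor medians set equal both Mtor and Rps6ka6 were lost (0.48 and 0.407). The vehicle call of Eif4ebp1 was lost without vehicle replicate 2 or 3 (0.164 and 0.129), and with array medians set equal (-0.24, adjusted p = 0.225). Neither of the 2 snoRNA host genes measured passed in either sort.

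**Figure D5:**
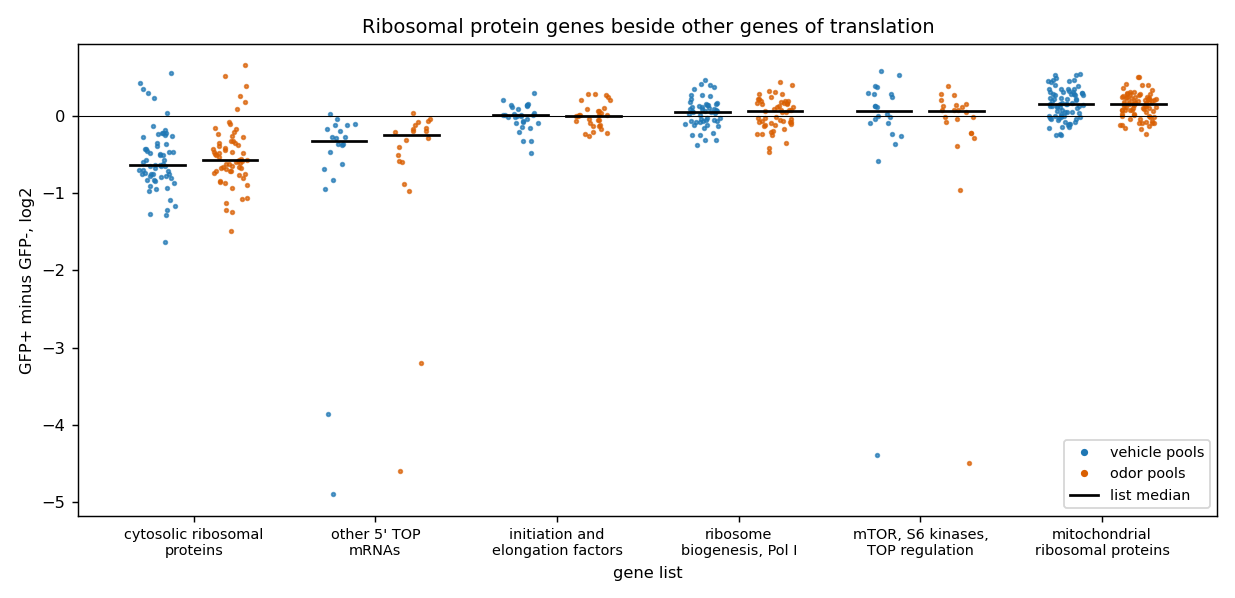
GFP+ minus GFP- log2 differences of the ribosomal protein genes and of the comparison lists in both sorts (points are genes, bars are medians). Medians were -0.63 and -0.57 for the ribosomal proteins and 0.16 in both sorts for the mitochondrial ribosomal proteins.

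The markers of other cell types were read in the same way. All 12 neutrophil markers measured fell in both, with medians of -7.79 and -7.41, and their summed log2 signal was 18.60 to 19.57 in GFP- and 10.56 to 12.36 in GFP+ samples. Of 17 markers of cycling and globose basal cells 16 fell in each sort (medians -2.29 and -2.17, summed signal 15.10 to 15.78 in GFP- and 14.34 to 14.62 in GFP+). Mki67, a marker of dividing cells, fell by 5.73 in both sorts. Of 17 immature neuron markers 9 and 8 fell, and their summed signal was 18.35 to 18.74 in GFP- and 18.32 to 18.55 in GFP+ samples. Gap43, the marker of growing axons in immature neurons, fell by 2.51 and 2.12. Of 24 mature neuron markers 1 fell in each sort, and 4 and 7 rose. Of 15 markers of macrophages and other leukocytes 12 fell in each sort, with summed signals of 15.81 to 17.32 in GFP- and 12.10 to 12.89 in GFP+ samples. Of 9 lymphocyte and plasma cell markers 9 and 8 fell, and of 12 microvillar cell markers 10 fell in each and 1 rose with odor. Among 14 sustentacular cell markers 5 and 7 fell. Markers of horizontal basal cells (2 and 1 of 11) and of Bowman's glands and respiratory epithelium (3 of 14 in each sort) fell less often. So did those of stroma and endothelium (1 of 11 in each) and ensheathing glia (0 of 7). In these lists 9, 4, 6 and 4 markers lay below the negative control median. With vehicle 1 gland and 1 stroma marker rose. Over all probe sets 11.8% and 11.9% were lower, and 9.34% and 11.3% higher.

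The odor itself was not accompanied by a called change in any of the 63 genes. Between odor and vehicle in GFP+ cells 0 members passed in limma, 1 had an unadjusted p under 0.05 (1587 probe sets, 7.15%, over the whole array), and 0.0766% of all probe sets passed. The median difference was 0.01 and the range -0.26 to 0.40. The highest was Rps4l, at 0.40 ± 0.17 with unadjusted p = 0.0332, and the lowest adjusted p of a member was 0.659. In GFP- cells 0 members passed and 0 had an unadjusted p under 0.05, against 0.0495% and 2.61% of all probe sets. The median was -0.04 and the range -0.23 to 0.27.

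In the difference between the 2 sorts, 0 members passed and 0 had an unadjusted p under 0.05, against 0.063% and 4.65% of all probe sets. The median was 0.04 and the range -0.23 to 0.44. Rpl36 was highest, at 0.44 ± 0.25 with unadjusted p = 0.093. It fell by 0.71 ± 0.17 with vehicle and was -0.27 ± 0.17 with odor. These comparisons have 4 pools per stimulus, and a p that misses the threshold does not show that the values were equal. Under every alternative run for these 3 comparisons 0 members passed.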

How the data were processed

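RNA of sorted GFP+ and GFP- cells was measured on 16 Clariom S arrays. The deposited values are log2 signals per probe set, for which the submitters' processing notes name Affymetrix Expression Console. The version, the summarization and the normalization were not given in the sources used here. An upstream adjustment that sets fractions to each other would move every difference of the sorts. The scaling alternatives show how far rescaling of the deposited values moves the results. They cannot recover values from before such an adjustment. No depth applies, and the number of arrays limits the precision.

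Of 28846 features, 6640 control entries were left out and 22206 probe sets were tested without further scaling or filtering. The 4 group means were fitted jointly with limma (version 3.58.1, R 4.3.3; lmFit and eBayes, two-sided, Benjamini-Hochberg over all tested probe sets, threshold 0.05). Errors printed as ± are model SE unless stated, with n = 4 arrays per group. The fit was tested on simulated data. Changes of a paralog and its partner were compared with a two-sided exact permutation test that did not use the pairing by pool.

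GFP+ and GFP- arrays with the same stimulus and number come from the same pool of mice, and their deviations correlated with r from 0.0119 to 0.224. For same-numbered odor and vehicle arrays r was 0.186 to 0.29 in GFP- cells and 0.0311 to 0.256 in GFP+ cells. Fits with these blocks, other scalings, a filter on dim probe sets, another prior and left-out pools were alternatives.

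The members, lists and tests were chosen with earlier results of these data known. Genes were named as the up to 12 lowest and 6 highest members past the threshold without overlap, plus the paralogs, stalk genes, Rpsa, Rps6, Rpl5 and Rpl11, the members of highest and lowest mean level, and leading members of the pathway lists. Other names (those listed by their pattern of calls or signs) were chosen after their values were seen. Promoter windows and names are from RefSeq tables.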

Additional observations from a re-analysis of the deposited data

Results flagged for a closer look

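Of 156 groups of 4 arrays examined for an array far from the others of its group, 5 met Dixon's criterion, where chance gives about 1 in 20. Rps20 had a low value of 11.18 in vehicle GFP+ replicate 4, against 11.44 to 11.48 in the other replicates. Its value of 12.18 in odor GFP- replicate 1 was also low, against 12.50 to 12.53. Rpl21 was 16.3 in odor GFP- replicate 3, below 16.46 to 16.49. Rpl7l1 was 11.62 in vehicle GFP+ replicate 2, the array with the high negative control signal, against 12.06 to 12.12. Rpl39l was 4.997 in vehicle GFP+ replicate 3, against 5.344 to 5.383, all below the median of the negative control entries.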

How the results depend on the processing

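Array scaling moved the counts most. With array medians set equal, 25 members fell with vehicle and 24 with odor, 6 and 6 rose, and the medians were -0.28 and -0.24, while 58.6% and 59% of all probe sets then passed as higher, against 9.34% and 11.3%. Signs turned there for 10 members in each sort, all short of the threshold. Among the genes that the naming rule selects these were Rpl4 (0.10), Rpl41 (0.21), Rpl7l1 (0.13) and Rps23 (0.00427) with vehicle, and Rpl21 (0.11), Rpl36 (0.057), Rpl4 (0.0033), Rpl41 (0.16) and Rpl7l1 (0.23) with odor. With odorant receptor medians set equal, 0 members rose in either sort, and the vehicle median was -0.86. Omp, higher with array medians set equal, was then -0.18 with vehicle and -0.0305 with odor, and Rpl39l -0.19 with vehicle. With quantile normalization 2 members rose with vehicle, and in the odor sort Omp was -0.022 and Rpl39l -0.0317. The number that rose was 0 with vehicle when only the compared groups were fitted, and 1 with odor when dim probe sets were left out. The pool as a block gave 1 higher member in the odor sort and 44 and 43 lower ones, and the calls it ended among named genes are given beside them, with that of Rps23 (vehicle adjusted p = 0.0748).

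Without single pools the vehicle sort had 37 to 45 lower and 0 to 2 higher members and a median of -0.65 to -0.58. The odor sort had 27 to 47 lower (27 without odor replicate 2), 1 to 2 higher and a median of -0.63 to -0.44. Rpl39l ran from -0.0474 (without vehicle replicate 2) to 0.18 with vehicle, and from -0.0171 (without odor replicate 3) to 0.19 with odor. Rpl10l ran from -0.0018 (without odor replicate 2) to 0.29 with odor. Leaving out the GFP+ array of vehicle replicate 2 alone, an alternative chosen after seeing the data, turned Rpl39l to -0.0021. In all, 25 members fell with vehicle and 23 with odor under every setting, and 0 rose under every setting. The same counts were not made over all probe sets. In the comparisons of odor with vehicle, 0 members passed under any alternative, the replicate number as a block included.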
